A study of Mus musculus with 16 samples.

Results

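Monocytic myeloid-derived suppressor cells (M-MDSCs) were sorted from the spleens of tumor-bearing mice, and their mRNA was compared between Nlrp3-/- and wild-type (WT) animals. This comparison rests on 8 of the 16 libraries of the series, those whose label gives M-MDSC as the cell type, with 4 Nlrp3-/- and 4 WT libraries. The other 8 libraries are granulocytic MDSCs (G-MDSCs) of the same design and serve only as a reference here. They carry the same mouse numbers as the M-MDSC libraries. All mice carried B16.F10 melanoma cells, a line of C57BL/6 origin, implanted subcutaneously at the back. The labels give C57BL/6 as the strain of every mouse. Per the methods, WT animals were C57BL/6J mice from a commercial vendor, whereas Nlrp3-/- animals were on a C57BL/6 background and came from another laboratory, so genotype and colony cannot be told apart. The mutant allele carries an EGFP cassette with a poly(A) signal in an early exon of Nlrp3, upstream of the 3′ end of the gene at which reads were counted. The animals were matched for sex and age in the methods, and no age is given in the labels. M-MDSCs were gated as CD11b high Ly6C+ Ly6G- cells, and each RNA came from a single mouse.

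NLRP3 is a cytosolic sensor that, upon activation, assembles with the adaptor ASC (encoded by Pycard) and caspase-1 into the inflammasome, which matures the cytokines IL-1β and IL-18. M-MDSCs are monocyte-like cells that expand in cancer and restrain T cells. In the spleen of tumor-bearing mice they share the red pulp with macrophages that clear red blood cells. In these bulk libraries, fewer cells of a type and less RNA per cell cannot be told apart.

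The total count per library ranged from 2295967 to 5933395 in WT and from 3639044 to 5902005 in Nlrp3-/- M-MDSCs, so that 3 counts, taken as the floor, correspond to 0.506 to 1.31 CPM (counts scaled to the library total). These floors are scaled to the library total alone. All other CPM are normalized by the trimmed mean of M-values (TMM), with factors from 0.9188 to 1.049. Where a gene is given from one value to another, these are the means of the 4 WT and of the 4 Nlrp3-/- libraries, in that order. Of 24421 gene symbols, 9986 passed the filter on low counts and were tested. Monocyte markers were abundant in both genotypes. Csf1r, the receptor for M-CSF, stood at 1777 ± 498 CPM in WT and 2748 ± 698 CPM in Nlrp3-/- M-MDSCs (SD, n = 4 each), and Ly6c2, which encodes the sorted surface protein Ly6C, at 1284 ± 261 CPM in WT and 1778 ± 296 CPM in Nlrp3-/- M-MDSCs (SD, n = 4 each). Ccr2, the chemokine receptor by which monocytes leave the bone marrow, stood at 1518 ± 384 CPM in WT and 1180 ± 219 CPM in Nlrp3-/- M-MDSCs (SD, n = 4 each). None of these 3 genes passed the test (adjusted p = 0.0989, 0.123 and 0.254). One WT library stood apart in neutrophil genes. The summed level of 17 neutrophil markers, tested or not, was 12000 CPM in WT replicate 2. It was 2090 to 2630 CPM in the other WT libraries, against 3200 to 3510 CPM in Nlrp3-/-. S100a8, a calcium-binding protein abundant in neutrophils and monocytes, read 979, 4873, 738 and 856 CPM in the 4 WT libraries and 1097, 1176, 1567 and 1224 CPM in the 4 Nlrp3-/- libraries. Results that turn on WT replicate 2 are given with and without it. In a principal component analysis of the 8 libraries, the first component held 38.1% of the variance and separated the genotypes, from −73.5 to −15.4 in WT and from −0.488 to 101 in Nlrp3-/-. On it Nlrp3-/- replicate 1 (−0.488) lay nearer to WT replicate 1 (−15.4) than to Nlrp3-/- replicates 2, 3 and 4 (46, 101 and 50.4).

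Nlrp3 transcript was nearly absent from the mutant libraries. Nlrp3 read 53, 116, 69.4 and 104 CPM in the 4 WT libraries and 0.974, 2.44, 1.08 and 0.679 CPM in the 4 Nlrp3-/- libraries. The highest mutant library lay far below the lowest WT library (log2 fold change −6.06, SE 0.39, adjusted p = 9.67e-06 by the quasi-likelihood test of edgeR, adjusted after Benjamini and Hochberg, as for every adjusted p here). An exact two-sided permutation test over the 70 assignments of 4 against 4 gave p = 0.0286, the smallest it can give.

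A differentially expressed gene (DEG) was defined by an adjusted p under 0.05 and a fold change above 1.5. By this rule 1060 of 9986 genes (10.6%) were called, 351 higher (3.51%) and 709 lower (7.1%) in Nlrp3-/- M-MDSCs. The genes that fell were changed more than those that rose, with median log2 fold changes of −1.04 and 0.836, and 381 genes were more than 2-fold lower against 105 more than 2-fold higher. The 4 libraries of one genotype lay apart from the 4 of the other in 2075 genes (20.8%), of which the mutant was higher in 971 (9.72% of tested genes) and lower in 1104 (11.1%). Among called genes the genotypes lay apart in 93.4% of those higher and 95.2% of those lower. Lack of overlap in a called gene therefore adds little to its call. The number of calls moved with single libraries: it was 514, 669 and 473 without WT replicates 2, 3 and 4, and 1783, 702 and 450 without Nlrp3-/- replicates 1, 3 and 4. The excess of lower genes depends on the scaling. With library size in place of TMM the calls split into 684 higher and 569 lower, so that the share of lower calls moved from 66.9% to 45.4%. Rn45s, the precursor of ribosomal RNA and the most abundant row of the table, took 13.4 to 23.2% of the counts in WT and 5.6 to 13.5% in Nlrp3-/- libraries. Without Rn45s, a setting chosen after seeing the data, scaling by library size called 255 higher and 790 lower. With TMM and without Rn45s, 350 were called higher and 707 lower, and 1056 of these calls were shared with the main fit. The replicates were separate libraries: in the 12 pairs within a genotype, none held identical counts.

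**Figure D1:**
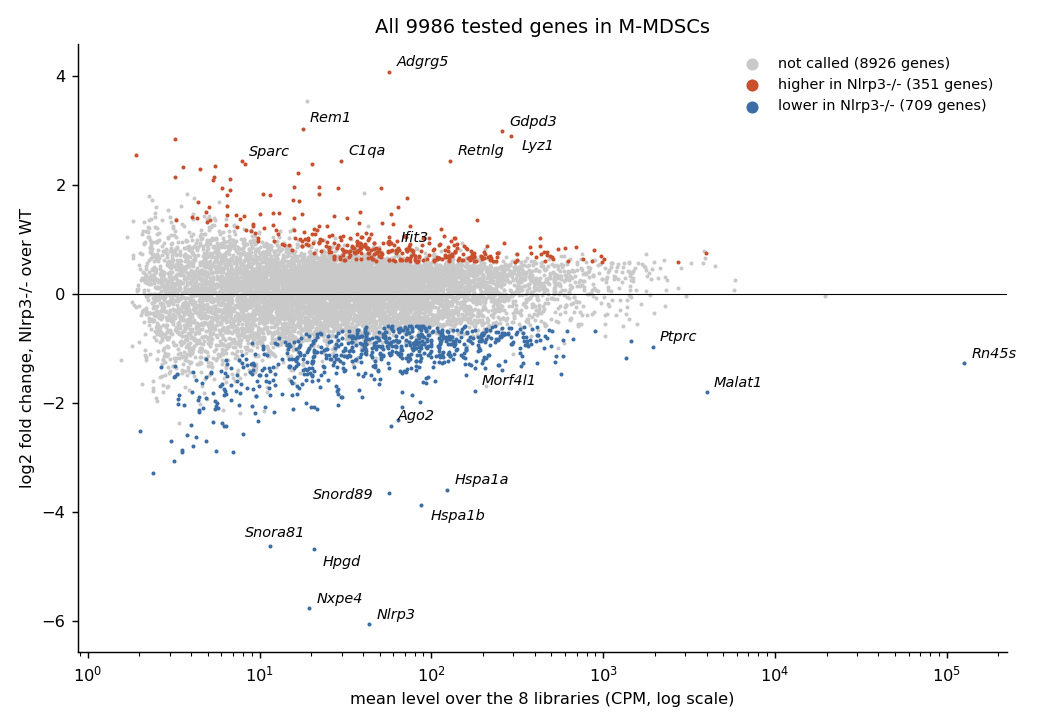
Log2 fold change of Nlrp3-/- over WT M-MDSCs (y axis) against the mean CPM of the 8 libraries (x axis, log scale) for the 9986 tested genes, with genes called higher or lower in color. The 709 lower calls reach further from 0 than the 351 higher calls, and Nlrp3 stands at −6.06.

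Of 28 tested genes of the inflammasome and IL-1 list, 4 fell, Nlrp3 included, and none rose (14.3% called, beside 10.6% of all genes), with a median log2 fold change of −0.08 beside 0.07 over all tested genes. Casp4, which encodes caspase-11, the sensor of cytosolic lipopolysaccharide, read 75, 88, 91.3 and 98.1 CPM in the 4 WT libraries and 41.7, 51.8, 40.3 and 32.9 CPM in the 4 Nlrp3-/- libraries. The genotypes did not overlap (log2 fold change −1.08, SE 0.18, adjusted p = 0.00443), and the call held without any 1 library. Nlrp1b, another inflammasome sensor, read 28.1, 23, 12.6 and 31.2 CPM in the 4 WT libraries and 8.44, 13.8, 8.12 and 2.55 CPM in the 4 Nlrp3-/- libraries. The genotypes overlapped in Nlrp1b (log2 fold change −1.53, SE 0.43, adjusted p = 0.0415), and the call was lost in every fit that left out 1 library except those without WT replicate 3 or Nlrp3-/- replicate 1 or 2. Its neighbor Nlrp1a went from 7.68 to 2.75 CPM (log2 fold change −1.44, adjusted p = 0.0466), and this call was lost in every fit that left out 1 library except that without Nlrp3-/- replicate 1. Nlrp1a and Nlrp1b are close paralogs, and their counts are uncertain to that extent. Without WT replicate 1, 2 or 4 or Nlrp3-/- replicate 3 or 4, 2 members of the list fell, and without Nlrp3-/- replicate 1, 6 fell. In the list 1 member rose in the fit without Nlrp3-/- replicate 3. The core partners of NLRP3 did not pass the test. Pycard stood at 124 ± 34.2 CPM in WT and 129.9 ± 13.4 CPM in Nlrp3-/- M-MDSCs (SD, n = 4 each) (log2 fold change 0.07, adjusted p = 0.843), and Casp1 at 96.7 ± 8.94 CPM in WT and 84.1 ± 19.8 CPM in Nlrp3-/- M-MDSCs (SD, n = 4 each) (log2 fold change −0.20, adjusted p = 0.489).

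The genes that rose with the smallest p in Nlrp3-/- M-MDSCs were picked among called genes whose genotypes did not overlap. Their separation was therefore fixed by the choice. Adgrg5, an adhesion G protein-coupled receptor, read 4.60, 7.73, 6.99 and 5.80 CPM in the 4 WT libraries and 123, 118, 81.7 and 106 CPM in the 4 Nlrp3-/- libraries (log2 fold change 4.07, SE 0.23, adjusted p = 2.24e-06). Gdpd3, a glycerophosphodiesterase that forms lysophosphatidic acid, read 58.8, 49.3, 58 and 67.3 CPM in the 4 WT libraries and 486, 412, 481 and 458 CPM in the 4 Nlrp3-/- libraries (log2 fold change 2.98, SE 0.16, adjusted p = 2.24e-06). No Nlrp3-/- library came near the WT range in either gene. Rmnd5b, a component of an E3 ubiquitin ligase complex, read 32.9, 27.2, 33.8 and 33 CPM in the 4 WT libraries and 95.4, 84.6, 108 and 96.6 CPM in the 4 Nlrp3-/- libraries (log2 fold change 1.60, SE 0.16, adjusted p = 0.000357). Rem1, a Ras-like GTPase, read 3.14, 1.84, 5.36 and 5.80 CPM in the 4 WT libraries and 34.2, 28, 37.6 and 26.8 CPM in the 4 Nlrp3-/- libraries (log2 fold change 3.03, SE 0.33, adjusted p = 0.000897). Wdfy1, an endosomal protein that recruits the adaptor TRIF to Toll-like receptors, rose from 19.8 to 56.6 CPM (log2 fold change 1.51, adjusted p = 0.00201). The genotypes did not overlap in Rmnd5b, Rem1 or Wdfy1, as the choice required. Kifc3, a minus-end-directed kinesin, rose from 31 to 85.2 CPM (log2 fold change 1.46, adjusted p = 0.00201). Lpl, the lipoprotein lipase that releases fatty acids from circulating triglycerides, rose from 33.2 to 112 CPM (log2 fold change 1.76, adjusted p = 0.00216). Sparc, a matricellular glycoprotein, rose from 2.48 to 13.3 CPM (log2 fold change 2.43, adjusted p = 0.00413). The calls of these 8 genes held when any 1 library was left out.

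**Figure D2:**
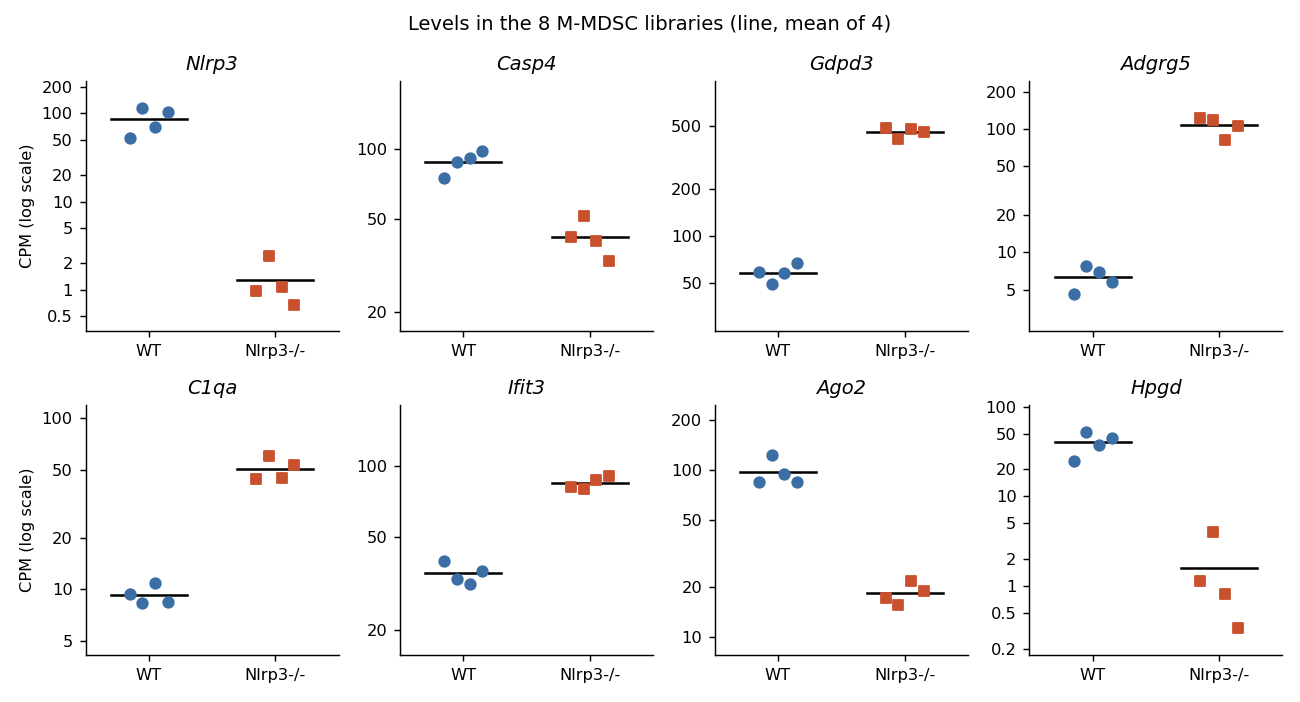
TMM-normalized CPM (y axis, log scale) of 8 genes, one panel each, in the 4 WT (circles) and 4 Nlrp3-/- (squares) M-MDSC libraries, with a line at the mean of 4. The genotypes do not overlap in any panel. Nlrp3 falls from a mean of 85.6 to 1.29 CPM, and Gdpd3 rises from 58.4 to 459 CPM.

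The genes that fell with the smallest p were likewise picked among called genes without overlap of the genotypes. They included genes of RNA silencing, chromatin and vesicle transport. Ago2, the slicing Argonaute of the RNA-induced silencing complex, read 85.6, 124, 95.3 and 84.7 CPM in the 4 WT libraries and 17.2, 15.6, 21.7 and 18.8 CPM in the 4 Nlrp3-/- libraries (log2 fold change −2.41, SE 0.19, adjusted p = 6.33e-05). Morf4l1, a reader of methylated histone H3 in acetyltransferase complexes, read 285, 287, 248 and 286 CPM in the 4 WT libraries and 104, 77.3, 63.1 and 77.2 CPM in the 4 Nlrp3-/- libraries (log2 fold change −1.78, SE 0.17, adjusted p = 0.000357). Copb1, a subunit of the coatomer that coats Golgi vesicles, fell from 158 to 52.1 CPM (log2 fold change −1.60, adjusted p = 0.000573). In these 3 genes every Nlrp3-/- library lay below every WT library, as the choice required. Dnttip2, a nucleolar factor, fell from 75.8 to 23.9 CPM (log2 fold change −1.66, adjusted p = 0.000357). Smc3, a core subunit of cohesin, fell from 235 to 84.3 CPM (log2 fold change −1.48, adjusted p = 0.00107), and Chd1, a chromatin remodeler, from 237 to 96.5 CPM (log2 fold change −1.29, adjusted p = 0.00216). Pak2, a kinase downstream of Rac and Cdc42, fell from 355 to 143 CPM (log2 fold change −1.31, adjusted p = 0.00201), and Crnkl1, a spliceosome component, from 104 to 38.5 CPM (log2 fold change −1.43, adjusted p = 0.00216). These 8 calls held without any 1 library.

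By size of change, the lower genes were led by transcripts close to the floor in the mutant. Nxpe4 read 25.2, 45.8, 46.6 and 34.8 CPM in the 4 WT libraries and 0, 0, 2.71 and 0.509 CPM in the 4 Nlrp3-/- libraries (log2 fold change −5.77, SE 0.69, adjusted p = 0.0014). Hpgd, the enzyme that inactivates prostaglandins, read 24.9, 52.6, 37.5 and 44.6 CPM in the 4 WT libraries and 1.14, 4.00, 0.812 and 0.340 CPM in the 4 Nlrp3-/- libraries (log2 fold change −4.69, SE 0.52, adjusted p = 0.000897). Both genes were well above the floor in every WT library. The heat shock genes Hspa1a and Hspa1b, near-identical copies whose counts are uncertain, fell together. Hspa1a read 177, 301, 42.6 and 397 CPM in the 4 WT libraries and 11.2, 26.2, 11.6 and 26.7 CPM in the 4 Nlrp3-/- libraries (log2 fold change −3.59, SE 0.57, adjusted p = 0.00427), and Hspa1b fell from 164 to 11.1 CPM (log2 fold change −3.88, adjusted p = 0.00621). Both are induced by heat and other stress. Among small nucleolar RNAs, which lie inside host genes with which they can share reads, Snora81 fell from 22.1 to 0.823 CPM (log2 fold change −4.62, adjusted p = 0.000897) and Snord89 from 105 to 8.38 CPM (log2 fold change −3.65, adjusted p = 0.0071). Malat1, an abundant nuclear long noncoding RNA, read 4133, 6916, 5895 and 7906 CPM in the 4 WT libraries and 1806, 2660, 1237 and 1424 CPM in the 4 Nlrp3-/- libraries (log2 fold change −1.80, SE 0.27, adjusted p = 0.00382). Ptprc, which encodes the pan-leukocyte protein CD45, fell from 2578 to 1314 CPM (log2 fold change −0.97, adjusted p = 0.0086), with an adjusted p of 0.104 under offsets for GC content and length. Rn45s fell from 179530 to 74147 CPM (log2 fold change −1.28, adjusted p = 0.0284), and its call was lost without WT replicate 2 or 4 or Nlrp3-/- replicate 3 or 4.

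Several markers of red pulp and tissue macrophages rose. Of 17 tested, 8 rose and none fell, beside 3.51% and 7.1% of all genes, with a median log2 fold change of 1.15. The summed level of all 21 markers, tested or not, was 1150 to 1540 CPM in WT and 1870 to 2490 CPM in Nlrp3-/- M-MDSCs. The chains of complement C1q moved together, and C1qa read 9.43, 8.28, 10.9 and 8.47 CPM in the 4 WT libraries and 44.1, 59.98, 44.9 and 53.5 CPM in the 4 Nlrp3-/- libraries (log2 fold change 2.44, SE 0.20, adjusted p = 9.42e-05). C1qb rose from 11.8 to 45.6 CPM (log2 fold change 1.94, adjusted p = 0.00427), and C1qc from 9.03 to 35.5 CPM (log2 fold change 1.96, adjusted p = 0.00636). Every Nlrp3-/- library was above every WT library in all 3 chains. Vcam1, the adhesion molecule of splenic red pulp macrophages, read 14.5, 22.6, 29.8 and 16.9 CPM in the 4 WT libraries and 91.5, 111, 40.6 and 79.3 CPM in the 4 Nlrp3-/- libraries (log2 fold change 1.93, SE 0.31, adjusted p = 0.00427). Cd5l, a secreted scavenger-type protein of macrophages, read 7.01, 8.47, 8.85 and 4.46 CPM in the 4 WT libraries and 21.3, 32.2, 19.5 and 24.3 CPM in the 4 Nlrp3-/- libraries (log2 fold change 1.72, SE 0.27, adjusted p = 0.00413). The genotypes did not overlap in either gene, and these 5 calls held without any 1 library. The other 3 called members are named after their values were seen. Slc40a1, the iron exporter ferroportin, rose from 7.87 to 26.2 CPM (log2 fold change 1.70, adjusted p = 0.0181), a call that was lost without WT replicate 4 or Nlrp3-/- replicate 4. Axl, a receptor for the clearance of dying cells, rose from 30.2 to 73.3 CPM (log2 fold change 1.29, adjusted p = 0.00555), a call that held without any 1 library. Marco, a scavenger receptor, had between 0 and 5 counts in each WT library and 16 or 17 in each Nlrp3-/- library (adjusted p = 0.0376), and its call was lost in every fit that left out 1 library except those without WT replicate 1 or Nlrp3-/- replicate 1. Leaving out 1 library at a time left 6 to 8 of the list higher, and 8 with offsets for GC content and length. The macrophage markers are not part of the sorting gate, and the part that such cells had in the other differences was not tested.

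**Figure D3:**
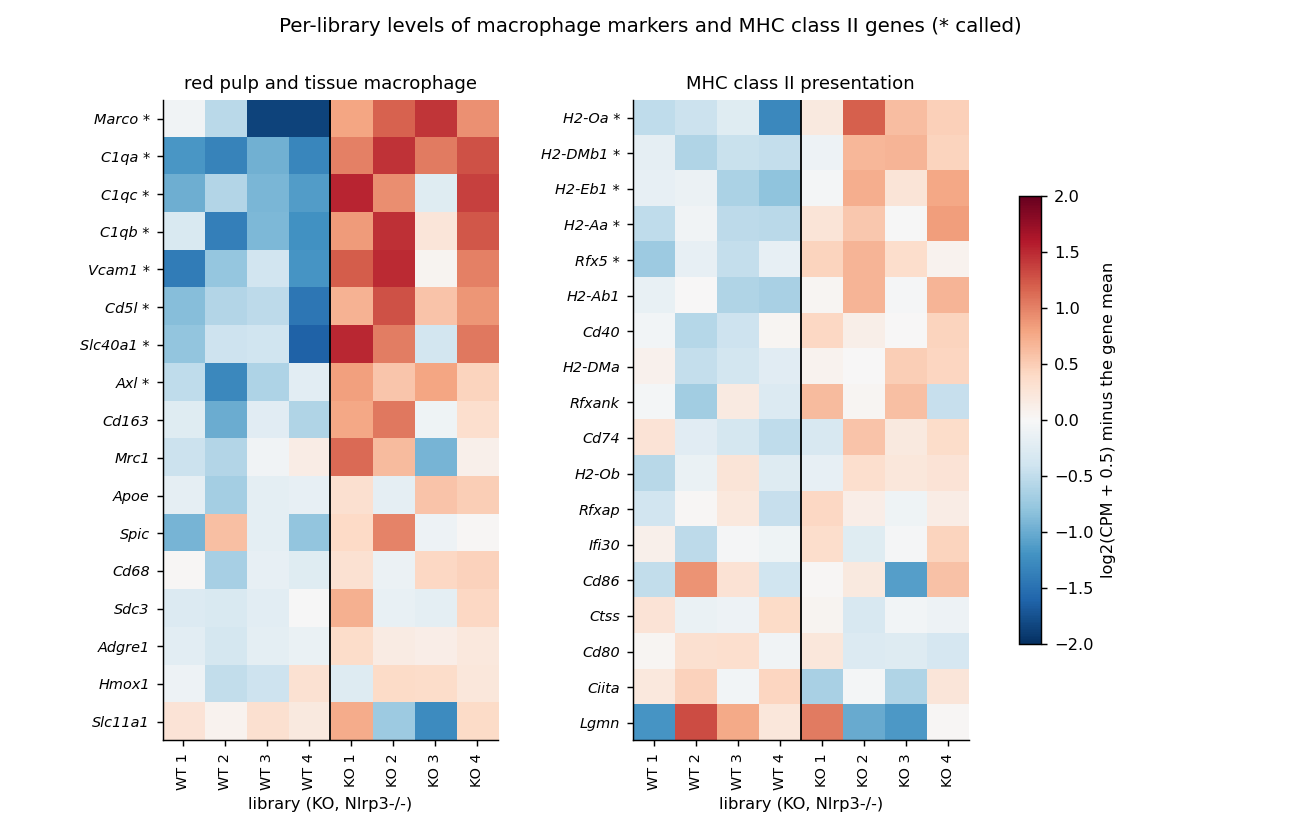
Log2 of CPM plus 0.5 minus the gene's mean over the 8 libraries (color) for the 17 tested macrophage markers (left) and the 18 tested MHC class II genes (right), with libraries as columns (KO, Nlrp3-/-) and called genes starred. C1qa, Vcam1 and Cd5l are higher in all 4 Nlrp3-/- columns than in any WT column, and H2-Aa and H2-Eb1 show the same order with a smaller difference.

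Of 14 tested neutrophil markers, 3 rose and none fell (21.4% called, beside 10.6% of all genes), although the list's median log2 fold change was −0.66. Without WT replicate 2, whose neutrophil genes were highest, 1 rose and the median was 0.36. Retnlg, a resistin-like protein of neutrophils and Ly6C+ monocytes, read 29.3, 33.7, 12.3 and 88.3 CPM in the 4 WT libraries and 188, 411, 147 and 119.7 CPM in the 4 Nlrp3-/- libraries (log2 fold change 2.44, SE 0.53, adjusted p = 0.0151). Its call held without any 1 library. Mmp9, the gelatinase of neutrophil granules, rose from 6.37 to 27.2 CPM (log2 fold change 2.22, adjusted p = 0.0169), and Cd177, a neutrophil surface protein, from 53.2 to 91.7 CPM (log2 fold change 0.78, adjusted p = 0.0233). The Mmp9 call was lost without WT replicate 2, and that of Cd177 was lost without WT replicate 2 or 4 or Nlrp3-/- replicate 4. Of 4 tested eosinophil and basophil markers, 1 rose and none fell (25% called). It was Ccr3, the eotaxin receptor of eosinophils, which went from 6.83 to 33.4 CPM (log2 fold change 2.39, adjusted p = 0.0175), and its call was lost without WT replicate 2. Lyz1, a lysozyme whose counts are uncertain beside its paralog Lyz2, read 119.7, 31.7, 52.4 and 72.2 CPM in the 4 WT libraries and 860.0, 49.8, 77.9 and 1066 CPM in the 4 Nlrp3-/- libraries (log2 fold change 2.90, SE 0.84, adjusted p = 0.046). The genotypes overlapped in Lyz1, and the call was lost in every fit that left out 1 library except those without Nlrp3-/- replicate 1, 2 or 3.

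Of 19 T cell and NK cell markers, 1 rose and 2 fell (15.8% called, beside 10.6% of all genes). Gzma, a granzyme of cytotoxic lymphocytes, rose from 44.4 to 106 CPM (log2 fold change 1.24, adjusted p = 0.0251), a call that was lost without WT replicate 4 or Nlrp3-/- replicate 2 or 4. Lef1, a transcription factor of T cells, fell from 28.2 to 12.1 CPM (log2 fold change −1.23, adjusted p = 0.0106), and Tcf7, its relative in naive T cells with 1 to 4 counts in each mutant library, from 3.42 to 0.601 CPM (log2 fold change −2.51, adjusted p = 0.0163). The Lef1 call held without any 1 library, and that of Tcf7 was lost without WT replicate 4 or Nlrp3-/- replicate 4. Of 18 dendritic cell markers 2 rose (11.1%), and none did without Nlrp3-/- replicate 4. They are Clec10a, described with the lectins, and Ly6d, a small surface protein named after its values were seen, which rose from 38.2 to 75.1 CPM (log2 fold change 0.96, adjusted p = 0.0249). Of 11 B cell and plasma cell markers 1 fell (9.09%), Ms4a1, which encodes CD20 and is likewise named after its values were seen, from 42 to 21.1 CPM (log2 fold change −0.99, adjusted p = 0.0467). Of this list 4 rose and 1 fell without Nlrp3-/- replicate 1, 1 fell without Nlrp3-/- replicate 2, and none was called without any other library. None of 11 erythroid and platelet, 15 immature granule or 2 melanoma markers that were tested was called by edgeR's quasi-likelihood test. At an unadjusted p under 0.05 1 erythroid marker and 3 granule markers were lower and 1 granule marker was higher, and DESeq2 and edgeR's exact test each called 1 erythroid marker lower and no granule or melanoma marker. The part of other cell types in these results was not tested.

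Genes of antigen presentation on MHC class II, the pathway that shows peptides to CD4+ T cells, rose in part. Of 18 tested, 5 rose and none fell, beside 3.51% and 7.1% of all genes, with a median log2 fold change of 0.43. These were 4 MHC genes and Rfx5, a factor that binds class II promoters. The promoters of the 4 MHC genes share the pentamer that forms the core of the Y box, the element bound by NF-Y in class II promoters. They are shown from 140 to 21 bases before the RefSeq start (GRCm38.p6, 5′ to 3′ on the strand of the gene), with ATTGG, or its reverse complement, in capitals. The windows lie at chr17:34287844-34287963, minus strand for H2-Aa, chr17:34305727-34305846, plus strand for H2-Eb1, chr17:34153051-34153170, plus strand for H2-DMb1 and chr17:34092239-34092358, plus strand for H2-Oa.
H2-Aa: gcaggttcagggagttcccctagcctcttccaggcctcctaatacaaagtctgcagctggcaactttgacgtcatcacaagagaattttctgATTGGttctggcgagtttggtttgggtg
H2-Eb1: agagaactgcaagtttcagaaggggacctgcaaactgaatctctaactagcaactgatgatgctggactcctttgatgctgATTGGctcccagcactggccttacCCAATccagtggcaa
H2-DMb1: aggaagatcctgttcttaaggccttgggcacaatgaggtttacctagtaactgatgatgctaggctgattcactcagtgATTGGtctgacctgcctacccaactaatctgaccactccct
H2-Oa: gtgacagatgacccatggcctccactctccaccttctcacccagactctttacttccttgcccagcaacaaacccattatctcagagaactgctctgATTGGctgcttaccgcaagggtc

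The letters ATTGG were searched on both strands from 250 bases before to 50 bases after each start. They were found in 5 of 5 class II list genes called higher and in 9 of 12 tested list members with a window, against 37.4% of all windows and 42.9% of the 7711 tested genes with a window. Such a match is a description of the letters only. H2-Aa, the α chain of I-A, read 397, 535, 389 and 385 CPM in the 4 WT libraries and 675, 819.8, 562 and 1008 CPM in the 4 Nlrp3-/- libraries (log2 fold change 0.84, SE 0.20, adjusted p = 0.022). H2-Eb1, the β chain of I-E, read 359, 369, 258 and 230.0 CPM in the 4 WT libraries and 392, 666, 482 and 685 CPM in the 4 Nlrp3-/- libraries (log2 fold change 0.87, SE 0.22, adjusted p = 0.0287). Both genes were higher in every Nlrp3-/- library than in any WT library. H2-DMb1, a chain of the peptide editor H2-M, rose from 149 to 274 CPM (log2 fold change 0.88, adjusted p = 0.0146), and H2-Oa, a chain of its inhibitor H2-O, from 6.96 to 17.1 CPM (log2 fold change 1.26, adjusted p = 0.0255). H2-Ab1, the partner chain of H2-Aa, did not pass, going from 452 to 737 CPM (log2 fold change 0.70, adjusted p = 0.0598), nor did Cd74, the invariant chain, from 578 to 773 CPM (log2 fold change 0.42, adjusted p = 0.226). The class II calls were sensitive to single libraries: none of the 18 genes was called without WT replicate 4, Nlrp3-/- replicate 2 or Nlrp3-/- replicate 4, 2 were called without WT replicate 3 and 3 without WT replicate 2. Offsets for GC content and length left 2, and paralogs in this locus make its counts uncertain.

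On MHC class I, 1 of 19 tested genes rose and 1 fell, with a median of −0.04. This is 10.5% called, close to the 10.6% of all genes. Tap1, a subunit of the transporter that loads peptides, read 167, 134, 134 and 140.4 CPM in the 4 WT libraries and 184, 213, 243 and 231 CPM in the 4 Nlrp3-/- libraries (log2 fold change 0.60, SE 0.15, adjusted p = 0.0277). Its call was lost in every fit that left out 1 library except those without WT replicate 1 or Nlrp3-/- replicate 1. Pdia3, a thiol oxidoreductase of the loading complex, went from 305 to 172 CPM (log2 fold change −0.82, adjusted p = 0.039), and its call was lost without WT replicate 1 or 4 or Nlrp3-/- replicate 2 or 4.

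Interferon response genes moved in both directions. Of 71 tested, 7 rose and 5 fell, beside shares of 3.51% and 7.1% over all genes, and the median log2 fold change was 0.21. Ifit3, an interferon-induced protein that restrains viral replication, read 39.4, 33.1, 31.4 and 35.7 CPM in the 4 WT libraries and 81.6, 79.8, 87.1 and 91 CPM in the 4 Nlrp3-/- libraries (log2 fold change 1.28, SE 0.15, adjusted p = 0.00137). Ifit3b, its near-identical neighbor with which it can share reads, rose from 3.49 to 9.43 CPM (log2 fold change 1.45, adjusted p = 0.0178), and this call was lost without WT replicate 2 or Nlrp3-/- replicate 4. The promoters of both genes hold the same pair of matches to the interferon-stimulated response element, shown in capitals as TTTC, any 2 bases and TTTC. The windows are chr19:34583339-34583448, plus strand for Ifit3 and chr19:34607742-34607851, plus strand for Ifit3b (GRCm38.p6).
Ifit3: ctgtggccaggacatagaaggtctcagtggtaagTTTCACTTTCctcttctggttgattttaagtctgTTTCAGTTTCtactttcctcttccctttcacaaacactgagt
Ifit3b: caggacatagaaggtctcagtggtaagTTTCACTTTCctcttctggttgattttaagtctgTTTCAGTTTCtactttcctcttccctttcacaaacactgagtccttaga

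This pattern (TTTC, any 2 bases, TTTC), on either strand, stood in 26 of 56 tested interferon genes with a window (46.4%), against 4.1% of tested genes and 3.44% of all windows. Of the interferon genes called higher 2 of 7 held the letters, and of those called lower 3 of 5 did. Ifi47, an interferon-inducible GTPase, rose from 109 to 199.9 CPM (log2 fold change 0.88, adjusted p = 0.0106), a call that held without any 1 library. Irf7, the master regulator of type I interferon genes, read 176, 125, 154 and 138 CPM in the 4 WT libraries and 196, 230.4, 283 and 253 CPM in the 4 Nlrp3-/- libraries (log2 fold change 0.70, SE 0.17, adjusted p = 0.0231). Irf1 rose from 376 to 610.0 CPM (log2 fold change 0.70, adjusted p = 0.0279) and Irf3 from 45.2 to 79.3 CPM (log2 fold change 0.81, adjusted p = 0.0204), both transcription factors of the interferon system. Calls of these 3 factors turned on single libraries. The Irf7 call was lost in every fit that left out 1 library except those without WT replicate 1 or Nlrp3-/- replicate 1, that of Irf1 was lost in every fit that left out 1 library except those without WT replicate 2 or Nlrp3-/- replicate 1 or 3, and that of Irf3 was lost without WT replicate 3 or 4 or Nlrp3-/- replicate 2.

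Among interferon genes that fell, Xaf1, a pro-apoptotic protein, read 70.4, 38.8, 33.3 and 45.5 CPM in the 4 WT libraries and 15.1, 18.7, 13 and 3.90 CPM in the 4 Nlrp3-/- libraries (log2 fold change −1.90, SE 0.40, adjusted p = 0.0125). Sp100, a protein of nuclear bodies, read 119, 83.2, 92 and 115 CPM in the 4 WT libraries and 49.2, 56, 33.8 and 35 CPM in the 4 Nlrp3-/- libraries (log2 fold change −1.23, SE 0.21, adjusted p = 0.00482). The genotypes did not overlap in either, and both calls held without any 1 library. Ifih1, which encodes the RNA sensor MDA5, went from 85 to 55.6 CPM (log2 fold change −0.61, adjusted p = 0.0346), and Trim30a, an inhibitor of NF-κB signaling, from 499 to 328 CPM (log2 fold change −0.61, adjusted p = 0.0398). The Ifih1 call was lost in every fit that left out 1 library except those without Nlrp3-/- replicate 1 or 3, and that of Trim30a was lost in every fit that left out 1 library except those without Nlrp3-/- replicate 1 or 2. Isg15, the ubiquitin-like interferon product, stood at 58.8 ± 24.1 CPM in WT and 46.3 ± 16.5 CPM in Nlrp3-/- M-MDSCs (SD, n = 4 each) (log2 fold change −0.33, adjusted p = 0.527). Leaving out 1 library moved the counts of the list to between 3 and 10 higher and between 2 and 9 lower. They were 3 higher and 2 lower without WT replicate 3, WT replicate 4 or Nlrp3-/- replicate 4, 3 and 3 without Nlrp3-/- replicate 2, 4 and 3 without WT replicate 2, 10 and 2 without WT replicate 1, and 8 and 9 without Nlrp3-/- replicate 1.

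Of 56 tested transcription factors of the myeloid lineage, 9 fell and none rose, beside 7.1% lower and 3.51% higher over all genes, with a median log2 fold change of −0.24. Klf6, a zinc finger factor of inflammatory macrophages, read 723, 980.4, 550.3 and 1097 CPM in the 4 WT libraries and 379.7, 317, 247 and 259 CPM in the 4 Nlrp3-/- libraries (log2 fold change −1.48, SE 0.23, adjusted p = 0.00413). Klf4, which drives monocyte differentiation, read 899.6, 705, 555 and 830.1 CPM in the 4 WT libraries and 391, 448, 409 and 416 CPM in the 4 Nlrp3-/- libraries (log2 fold change −0.85, SE 0.17, adjusted p = 0.0105). In both genes every mutant library lay below every WT library. The Klf4 and Klf6 calls held without any 1 library. Cebpz, a CCAAT-binding factor that also acts in ribosome formation, fell from 289 to 128 CPM (log2 fold change −1.18, adjusted p = 0.00128). Nr3c1, the glucocorticoid receptor, fell from 126 to 64.6 CPM (log2 fold change −0.96, adjusted p = 0.0141), a call that was lost without WT replicate 4. With offsets for GC content and length, 1 member rose and 6 fell, and without WT replicate 4, 3 members fell.

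Of 23 classical monocyte markers, 4 fell and none rose (17.4% called, beside 10.6% of all genes), with a median log2 fold change of 0.01, and 2 fell without WT replicate 4. Besides Klf4 they included Vcan, the proteoglycan versican, which read 449, 467, 390.0 and 627 CPM in the 4 WT libraries and 231, 169.7, 225 and 174 CPM in the 4 Nlrp3-/- libraries (log2 fold change −1.27, SE 0.19, adjusted p = 0.00362), and Itgam, which encodes the sorted integrin CD11b. Itgam read 291, 217, 194 and 300.0 CPM in the 4 WT libraries and 189.5, 146, 147 and 128 CPM in the 4 Nlrp3-/- libraries (log2 fold change −0.71, SE 0.19, adjusted p = 0.0329). The Vcan call held without any 1 library, whereas that of Itgam was lost in every fit that left out 1 library except those without WT replicate 3 or Nlrp3-/- replicate 1.

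Of 56 pattern recognition and lectin receptors, 6 rose and 1 fell, beside 3.51% and 7.1% of all genes. Without WT replicate 3 or Nlrp3-/- replicate 4, 1 rose, without WT replicate 4, 2 rose, without WT replicate 2 or Nlrp3-/- replicate 2 or 3, 3 rose, and without Nlrp3-/- replicate 1, 8 rose and 7 fell. Cd209d, a C-type lectin of the SIGN family whose members are close paralogs, read 1.69, 0.736, 2.097 and 3.12 CPM in the 4 WT libraries and 9.25, 12.9, 7.85 and 6.62 CPM in the 4 Nlrp3-/- libraries (log2 fold change 2.34, SE 0.44, adjusted p = 0.00832). Clec4n, which encodes Dectin-2, rose from 28.4 to 58.2 CPM (log2 fold change 1.03, adjusted p = 0.0264), and Tlr6, a partner of TLR2, from 12.4 to 23.1 CPM (log2 fold change 0.88, adjusted p = 0.0316). Tlr8, an endosomal receptor, fell from 18.1 to 4.98 CPM (log2 fold change −1.86, adjusted p = 0.0138). The calls of Cd209d and Tlr8 held without any 1 library, that of Clec4n was lost without WT replicate 3 or 4 or Nlrp3-/- replicate 4, and that of Tlr6 was lost in every fit that left out 1 library except those without WT replicate 2 or Nlrp3-/- replicate 1 or 3. Clec10a, a galactose-type lectin of macrophages and dendritic cells, rose from 56.6 to 98.4 CPM (log2 fold change 0.81, adjusted p = 0.0271), a call that was lost in every fit that left out 1 library except those without WT replicate 4 or Nlrp3-/- replicate 1 or 2. Of 38 cytokine receptors and their regulators, 2 rose and 1 fell (7.89% called, beside 10.6% of all genes). Of these genes 4 rose without WT replicate 1 or Nlrp3-/- replicate 1, 1 without WT replicate 3 and none without any other library. Csf2ra, the α chain of the GM-CSF receptor, rose from 164 to 262 CPM (log2 fold change 0.68, adjusted p = 0.0396), and Il17ra, the IL-17 receptor, from 644 to 1120 CPM (log2 fold change 0.80, adjusted p = 0.0276). Smad7, an inhibitor of TGF-β signaling, fell from 18.2 to 7.39 CPM (log2 fold change −1.29, adjusted p = 0.0115). The Smad7 call held without any 1 library, that of Csf2ra was lost in every fit that left out 1 library except those without WT replicate 3 or Nlrp3-/- replicate 1, and that of Il17ra was lost in every fit that left out 1 library except those without WT replicate 1 or Nlrp3-/- replicate 1.

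Of 61 immediate early and NF-κB response genes, 2 rose and 3 fell (8.2% called, beside 10.6% of all genes). The counts were 7 higher and 12 lower without Nlrp3-/- replicate 1, none higher and 1 lower without WT replicate 2 or Nlrp3-/- replicate 4, none higher and 2 lower without Nlrp3-/- replicate 2, and 1 or 2 higher and 2 to 4 lower without any other library. The NF-κB subunits parted: Rela rose from 149 to 254 CPM (log2 fold change 0.77, adjusted p = 0.0221), and Rel fell from 158 to 74 CPM (log2 fold change −1.10, adjusted p = 0.0195). The Rela call was lost in every fit that left out 1 library except those without WT replicate 1 or Nlrp3-/- replicate 1, and that of Rel was lost without WT replicate 2 or Nlrp3-/- replicate 4. Plaur, the urokinase receptor, rose from 90.5 to 148 CPM (log2 fold change 0.71, adjusted p = 0.0266), a call that was lost in every fit that left out 1 library except those without WT replicate 3 or Nlrp3-/- replicate 1 or 3. Jund, a subunit of AP-1, read 251, 168, 121 and 168 CPM in the 4 WT libraries and 69.3, 84.9, 93.4 and 73.9 CPM in the 4 Nlrp3-/- libraries (log2 fold change −1.14, SE 0.21, adjusted p = 0.00775) without overlap of the genotypes, and its call held without any 1 library.

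Antioxidant genes and targets of NRF2, the factor that Nfe2l2 encodes, held 8 calls. Of 50 tested, 2 rose and 6 fell, beside 3.51% and 7.1% of all genes, with a median log2 fold change of 0.17, and offsets for GC content and length left 1 higher and 4 lower. Without WT replicate 2 or 4, 3 members fell, without Nlrp3-/- replicate 4, 4 fell, and without Nlrp3-/- replicate 1, 9 fell. No member rose without WT replicate 1, 2 or 3 or Nlrp3-/- replicate 3 or 4, and 1 rose without WT replicate 4 or Nlrp3-/- replicate 2. Nfe2l2 itself read 305, 277, 177 and 247 CPM in the 4 WT libraries and 168, 144, 128 and 116 CPM in the 4 Nlrp3-/- libraries (log2 fold change −0.85, SE 0.19, adjusted p = 0.0177), and its call was lost without WT replicate 2 or 4 or Nlrp3-/- replicate 4. Txnrd1, the cytosolic thioredoxin reductase, read 84.7, 80.1, 35.4 and 61.5 CPM in the 4 WT libraries and 21.1, 30.2, 18.9 and 23.3 CPM in the 4 Nlrp3-/- libraries (log2 fold change −1.48, SE 0.27, adjusted p = 0.00697). Gpx3, the secreted glutathione peroxidase, read 25.6, 14.4, 13.7 and 11.1 CPM in the 4 WT libraries and 3.25, 3.78, 3.25 and 2.72 CPM in the 4 Nlrp3-/- libraries (log2 fold change −2.32, SE 0.33, adjusted p = 0.00298). Both calls held without any 1 library. Gclm, the regulatory subunit of glutathione synthesis, named after its values were seen, fell from 21.2 to 8.40 CPM (log2 fold change −1.35, adjusted p = 0.0478), and this call was lost in every fit that left out 1 library except those without WT replicate 3 or Nlrp3-/- replicate 1 or 3. The promoter windows of Gclm (chr3:122245373-122245482, plus strand) and Txnrd1 (chr10:82859064-82859173, plus strand) each hold a match to the core of the antioxidant response element, TGACNNNGC, on the opposite strand, where it appears in capitals as its reverse complement (GRCm38.p6).
Gclm: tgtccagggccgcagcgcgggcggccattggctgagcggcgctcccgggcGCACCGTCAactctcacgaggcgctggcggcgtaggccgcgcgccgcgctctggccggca
Txnrd1: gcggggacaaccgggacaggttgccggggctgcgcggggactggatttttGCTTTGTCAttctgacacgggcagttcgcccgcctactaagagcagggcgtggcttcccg

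These letters stood in 3 of 4 list members that fell and have a window, in neither of the 2 that rose, in 13 of 42 tested members and in 17.3% of tested genes. The members that rose were Gpx1, the abundant cytosolic glutathione peroxidase, from 2176 to 3275 CPM (log2 fold change 0.59, adjusted p = 0.0486), and Cat, catalase, from 66.1 to 99.7 CPM (log2 fold change 0.59, adjusted p = 0.0469). Both lie at the limit of 1.5-fold. The Gpx1 call was lost in every fit that left out 1 library, and that of Cat was lost in every fit that left out 1 library except that without Nlrp3-/- replicate 1.

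Few genes of energy metabolism were called. Of 75 genes of oxidative phosphorylation, 3 rose and none fell, a share close to the 3.51% of all genes, with a median log2 fold change of 0.25. The log2 fold change was positive in 61 of the 75, beside 5495 of 9986 over all genes. At an unadjusted p under 0.05 by the quasi-likelihood test, 19 were higher and none lower. Uqcrc1, a core subunit of complex III, read 87.8, 80.1, 81.8 and 110.1 CPM in the 4 WT libraries and 166, 158, 229 and 180.3 CPM in the 4 Nlrp3-/- libraries (log2 fold change 1.03, SE 0.17, adjusted p = 0.00484). Uqcrq, another complex III subunit, rose from 186 to 297 CPM (log2 fold change 0.68, adjusted p = 0.0204). The Uqcrc1 call held without any 1 library, whereas that of Uqcrq was lost without WT replicate 2, 3 or 4 or Nlrp3-/- replicate 4. In the whole list 1 gene rose without WT replicate 2, 3 or 4 or Nlrp3-/- replicate 4, and 6 rose and 1 fell without Nlrp3-/- replicate 1. Of 38 glycolysis and hypoxia genes none rose and 1 fell (2.63% called, beside 10.6% of all genes). Of 77 cytosolic ribosomal proteins 3 rose and 1 fell (5.19% called), with a median of 0.23. At an unadjusted p under 0.05 by the quasi-likelihood test, 22 ribosomal proteins were higher and 2 lower, and 8 glycolysis and hypoxia genes were higher and 2 lower. For ribosomal proteins the counts were 5 higher and 5 lower without Nlrp3-/- replicate 1, 5 and 1 without WT replicate 1, none higher and 1 lower without Nlrp3-/- replicate 4, and 1 or 2 higher and 1 lower without any other library. The ribosomal protein that fell, Rplp1, read 2158, 1558, 1780 and 2011 CPM in the 4 WT libraries and 1009, 997, 1071 and 1058 CPM in the 4 Nlrp3-/- libraries (log2 fold change −0.86, SE 0.15, adjusted p = 0.00658).

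In the mTORC1, Ragulator and AKT list, 2 of 48 genes rose and 2 fell (8.33% called, beside 10.6% of all genes). These counts were 4 and 5 without Nlrp3-/- replicate 1, none and 1 without Nlrp3-/- replicate 4, and 1 and 2 without WT replicate 2 or 4. Lamtor1, the membrane anchor of Ragulator on lysosomes, rose from 179 to 300.1 CPM (log2 fold change 0.74, adjusted p = 0.011), and Akt2, a kinase of insulin signaling, from 74.8 to 132 CPM (log2 fold change 0.82, adjusted p = 0.0163). Eif4ebp2, a repressor of cap-dependent translation, read 62.6, 157, 149 and 181 CPM in the 4 WT libraries and 50.5, 21.6, 13.5 and 51.4 CPM in the 4 Nlrp3-/- libraries (log2 fold change −1.99, SE 0.42, adjusted p = 0.0131). Gsk3b, a kinase inhibited by AKT, fell from 249 to 141 CPM (log2 fold change −0.82, adjusted p = 0.0196). The Lamtor1 call was lost without Nlrp3-/- replicate 4, that of Akt2 was lost without WT replicate 2 or 4 or Nlrp3-/- replicate 4, that of Gsk3b was lost without Nlrp3-/- replicate 4, and that of Eif4ebp2 held throughout. Of 54 lysosomal and V-ATPase genes, 4 rose and 1 fell (9.26% called, beside 10.6% of all genes), with a median of 0.34. At an unadjusted p under 0.05 by the quasi-likelihood test, 20 of them were higher and 1 was lower. In this list 9 rose without WT replicate 1 and 10 without Nlrp3-/- replicate 1, but no more than 1 without any other library. Of 18 BCL2 family genes, 1 rose and none fell (5.56% called, beside 10.6% of all genes). It was Bbc3, the pro-apoptotic PUMA, which went from 52.3 to 95.6 CPM (log2 fold change 0.87, adjusted p = 0.00832).

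Of 105 chromatin regulators, 35 fell and 3 rose, beside 7.1% and 3.51% of all genes, with a median log2 fold change of −0.47. Atrx, a remodeler of heterochromatin, read 537, 603, 526 and 654 CPM in the 4 WT libraries and 217, 329, 229.8 and 188 CPM in the 4 Nlrp3-/- libraries (log2 fold change −1.27, SE 0.19, adjusted p = 0.00381). Arid4b, a subunit of the Sin3 corepressor, fell from 298 to 136 CPM (log2 fold change −1.13, adjusted p = 0.00314). Both calls held without any 1 library. The number that fell was 21 without WT replicate 2 and 19 without either WT replicate 4 or Nlrp3-/- replicate 4.

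Of 87 genes of DNA damage and repair, 14 fell and 1 rose (17.2% called, beside 10.6% of all genes), with a median of −0.43. Rad50, a subunit of the complex that binds double-strand breaks, fell from 77 to 36.2 CPM (log2 fold change −1.09, adjusted p = 0.00443). Bod1l, a protector of stalled replication forks, fell from 294 to 115 CPM (log2 fold change −1.35, adjusted p = 0.00286). Of 100 splicing factors and RNA helicases, 22 fell and 2 rose (24% called), with a median of −0.16. Pnn, a splicing protein of nuclear speckles, fell from 104 to 45.2 CPM (log2 fold change −1.20, adjusted p = 0.00314), Thrap3 from 152 to 69.9 CPM (log2 fold change −1.12, adjusted p = 0.00413) and Hnrnpr from 71.3 to 32.6 CPM (log2 fold change −1.13, adjusted p = 0.00294). These 5 calls held without any 1 library, but with offsets for GC content and length Hnrnpr had an adjusted p of 0.158. The number of splicing genes that fell was 11 without WT replicate 2, 12 without WT replicate 4 and 11 without Nlrp3-/- replicate 4.

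**Figure D4:**
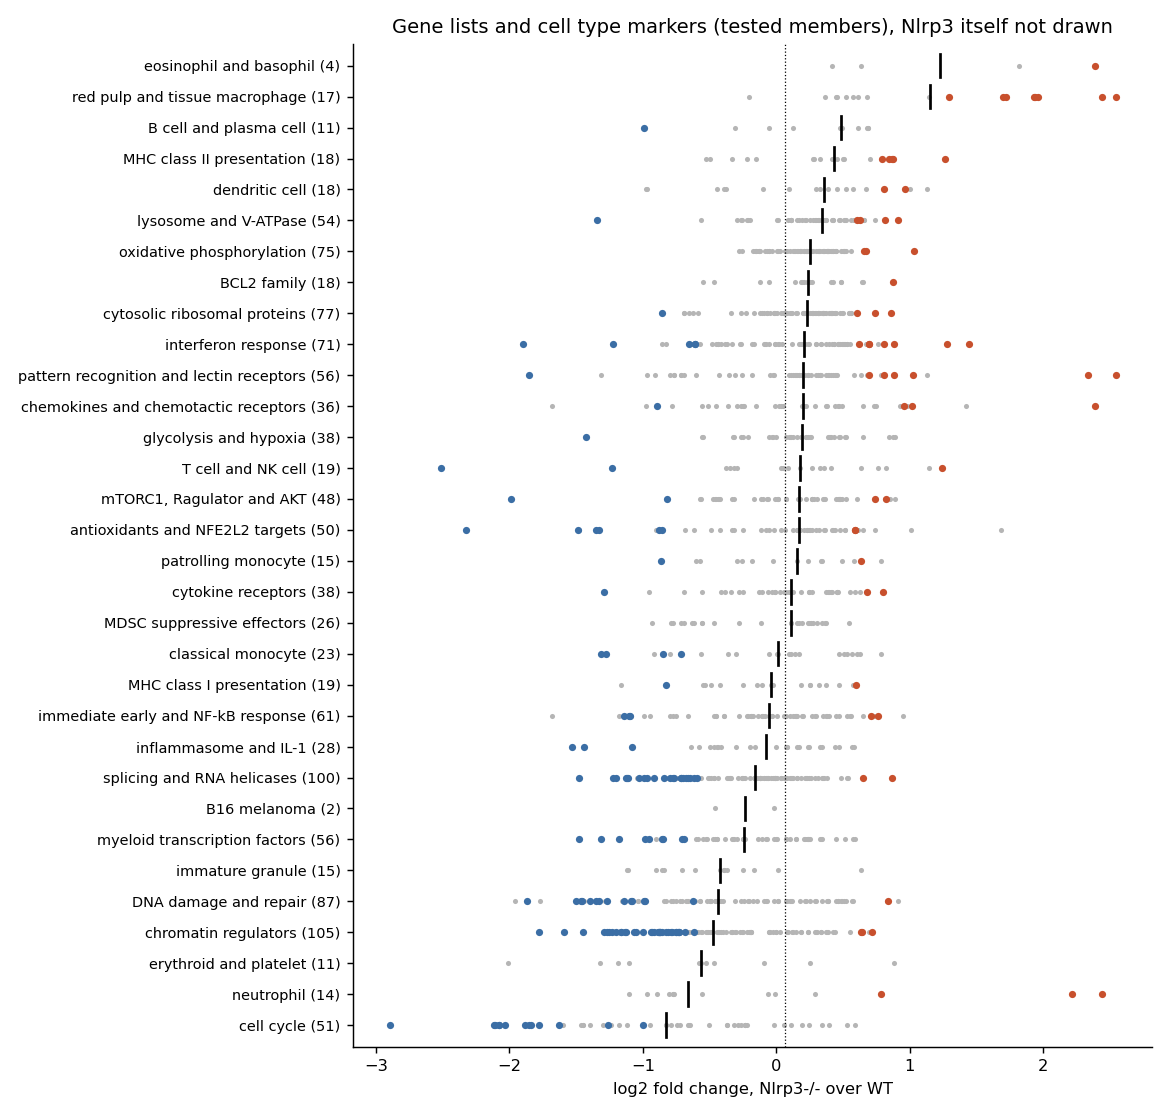
Log2 fold change of Nlrp3-/- over WT (x axis) of the tested members of each gene list (rows, number tested in brackets), with members called higher in red, called lower in blue and others in gray. The black bar is the list's median and the dotted line that of all tested genes, 0.07; the medians run from −0.82 in cell cycle genes to 1.15 in red pulp macrophage markers among lists of more than 4 genes, and Nlrp3 itself is not drawn.

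Of 51 cell cycle genes, 13 fell and none rose, beside 7.1% lower and 3.51% higher over all genes, with a median log2 fold change of −0.82. Mki67, the gene of the proliferation antigen Ki-67, read 84.4, 201, 63.8 and 89.2 CPM in the 4 WT libraries and 23.7, 23.8, 44.7 and 12.9 CPM in the 4 Nlrp3-/- libraries (log2 fold change −2.08, SE 0.41, adjusted p = 0.00889). Kif11, the kinesin that separates the spindle poles, read 7.01, 28, 6.76 and 8.02 CPM in the 4 WT libraries and 1.46, 2.67, 0.812 and 1.70 CPM in the 4 Nlrp3-/- libraries (log2 fold change −2.90, SE 0.56, adjusted p = 0.00858). Top2a, the topoisomerase of dividing cells, read 108, 290.1, 86.7 and 78.9 CPM in the 4 WT libraries and 32.9, 47.5, 73.6 and 29.9 CPM in the 4 Nlrp3-/- libraries (log2 fold change −1.63, SE 0.42, adjusted p = 0.0297). WT replicate 2 was the highest library in all 3 genes, the genotypes did not overlap in any of them, and the summed level of the list was 4070 CPM there and 2280 to 2550 CPM in the other WT libraries. In Nlrp3-/- libraries this sum was 2021, 2207, 2883 and 2063 CPM, so that the genotypes overlapped and Nlrp3-/- replicate 3 lay above 3 of the 4 WT libraries. Without WT replicate 2, 7 genes fell and the median was −0.26, and without Nlrp3-/- replicate 4 and Nlrp3-/- replicate 2, left out one at a time, 5 and 8 fell. Smc2 fell from 62.3 to 17 CPM (log2 fold change −1.89, adjusted p = 0.0071) and Smc4 from 279 to 117 CPM (log2 fold change −1.26, adjusted p = 0.0067), both core subunits of condensin, and these calls held without any 1 library. The Top2a call was lost without WT replicate 2 or Nlrp3-/- replicate 2 or 4.

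The direction of change moved with the base composition of the transcripts. The median GC content was 54.48% in genes called higher, 44.01% in genes called lower and 49.45% over all genes. Among genes with at most 40% GC, 16.7% were lower and 1.16% higher, whereas among those above 60% GC 0.641% were lower and 11.2% higher. The lower genes also had longer transcripts, with a median of 4962 bases against 2765 in the higher and 3390 over all genes. With offsets for GC content and length, 656 genes were called, 284 higher and 372 lower, 493 of them shared with the fit without offsets. In libraries, genes with at most 45% GC deviated from their own mean by a median log2 CPM of 0.027 to 0.213 in WT and −0.24 to 0.023 in Nlrp3-/-, and genes above 55% GC by −0.215 to −0.017 and 0.044 to 0.306. Under these offsets 15 chromatin regulators, 9 splicing genes, 11 repair genes and 7 cell cycle genes fell. Of 108 called genes followed one by one under the offsets, those whose calls ended were Nlrp1a, Nlrp1b, Cd177, Lyz1, Irf7, Irf1, Irf3, Trim30a, Ifih1, H2-Eb1, H2-DMb1, H2-Oa, Tap1, Pdia3, Itgam, Gclm, Gpx1, Cat, Ptprc, Top2a, Hnrnpr, Rela, Rel, Csf2ra, Gsk3b, Bbc3, Marco, Ccl5, Gpr183, Nr3c1 and Plaur, with adjusted p-values from 0.0528 to 0.409. Ms4a1, Ly6d and Rfx5 were not among the genes followed. The Ms4a1 call also ended, since no B cell and plasma cell marker was called lower under the offsets. The part of base composition, of Rn45s and of library preparation in these results was not tested.

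**Figure D5:**
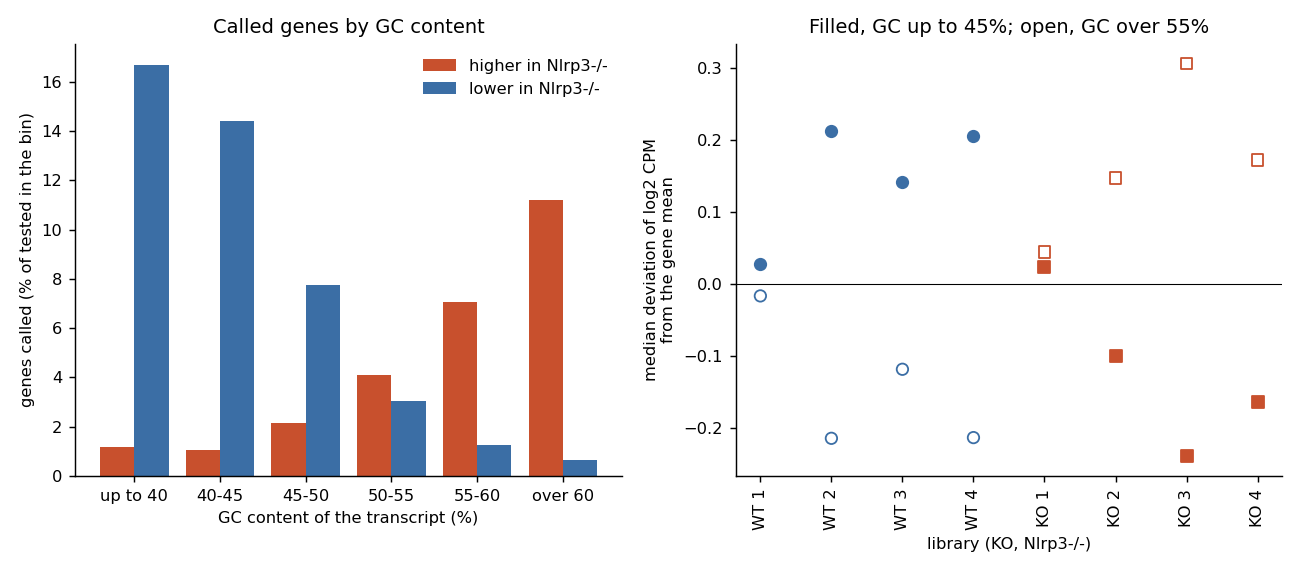
Left, percent of tested genes called higher and lower (y axis) in 6 classes of transcript GC content (x axis). Right, the median deviation of log2 CPM from the gene mean in each library (KO, Nlrp3-/-), for genes with at most 45% GC (filled) and above 55% GC (open). The share of lower calls falls from 16.7% to 0.641% and that of higher calls rises from 1.16% to 11.2% with GC content.

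None of 26 tested genes of MDSC suppressive effectors was called by edgeR's quasi-likelihood test, beside 10.6% of all genes. At an unadjusted p under 0.05 1 was higher and 3 were lower, DESeq2 called 3 lower, Cd274 among them, and edgeR's exact test called Cd274 alone. With 1 library left out at a time, 1 rose without WT replicate 1 and 2 fell without Nlrp3-/- replicate 1. None was called without any other library. Arg1 and Nos2, the arginine-consuming enzymes of suppressive myeloid cells, did not reach the filter on low counts. Cd274, which encodes the checkpoint ligand PD-L1, read 12.8, 25.6, 17.9 and 12 CPM in the 4 WT libraries and 8.92, 8.22, 9.47 and 9.51 CPM in the 4 Nlrp3-/- libraries. Every Nlrp3-/- library was below every WT library, and the adjusted p was 0.0503 (log2 fold change −0.93, SE 0.28), above the threshold of 0.05.

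The genotype effect was compared with that in G-MDSCs of the same design by an interaction term over all 16 libraries, which tests whether the 2 log2 fold changes differ. Of 10696 genes, 3 (0.028%) passed, and 480 had an unadjusted p under 0.05. Adgrg5 differed by 3.71 on the log2 scale, M-MDSC minus G-MDSC (adjusted p = 0.0103), with log2 fold changes of 4.07 in M-MDSCs and 0.29 in G-MDSCs. Gdpd3 differed by −1.94 (adjusted p = 0.000933), with 2.98 and 4.81, so that this gene rose in both subsets. Pisd-ps1, a pseudogene of a phospholipid decarboxylase, differed by −2.09 (adjusted p = 0.0103), with −0.52 and 1.45. With 1 mouse left out at a time the number that passed was between 1 and 4, and it was 1 without WT replicate 1, WT replicate 3 or WT replicate 4. Gdpd3 passed in each of these fits. Adgrg5 did not pass without WT replicate 1, 3 or 4 or Nlrp3-/- replicate 2 (adjusted p = 0.0763 to 0.191), and Pisd-ps1 did not without WT replicate 1, 3 or 4 or Nlrp3-/- replicate 1 or 4 (adjusted p = 0.0519 to 0.152). Within G-MDSCs alone, 16.4% of 9273 tested genes were called, 4.7% higher and 11.7% lower. In the 8823 genes tested in both subsets, no gene was called in opposite directions. Of the 321 called higher in M-MDSCs, 13 had a negative log2 fold change in G-MDSCs, and of the 676 called lower 4 had a positive one. The subsets carry the same mouse numbers, and the share of opposite signs over all 8823 genes is not given here. With the mouse as a block, which the shared numbers of the subsets allow, 4 genes passed.

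The neighborhood of Nlrp3 on chromosome 11, where a mutant allele moved between strains can carry linked sequence, was read separately. Within 2 Mb 1.96% of 51 tested genes other than Nlrp3 were called, within 5 Mb 8.33% of 84, within 10 Mb 12.3% of 154 and within 20 Mb 11.1% of 323, beside 10.6% over all genes. Of the called genes named here, Sparc and Gpx3 lie within 5 Mb of Nlrp3, Irf1, Rad50, Uqcrq, Tcf7 and Rmnd5b between 5 and 10 Mb, and Ifi47, Clec10a, Nlrp1a, Nlrp1b and Xaf1 between 10 and 20 Mb. The part of linked sequence in these 12 differences was not tested.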

How the data were processed

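QuantSeq 3′ mRNA libraries of M-MDSCs from 4 WT and 4 Nlrp3-/- mice were used. Reads had been aligned by the authors to mm10 with HISAT2 2.1.0 and assigned to genes on their strand with HTSeq, and raw counts were deposited for 24421 gene symbols per library, taken as deposited. Every count column was assigned to a sample. Counts were compared in R 4.3.3 with edgeR 4.0.16 (filterByExpr, TMM, quasi-likelihood test, Benjamini-Hochberg adjustment), requiring an FDR below 0.05 together with a change of more than 1.5-fold, and the SE is the log2 fold change divided by the root of F. DESeq2 1.42.0 and edgeR's exact test served as alternatives, as did other scaling and filters, left-out libraries, the replicate block and spline offsets for GC content and length. Total counts ranged from 2295967 to 5933395 per library, and floors of 3 counts cover counting error only. Transcript GC content and length came from GENCODE M21 (24026 symbols matched), promoters from RefSeq on GRCm38.p6. The fits were tested on simulated data.

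The genes named are Nlrp3 and called genes with the smallest p, the largest change or the highest level. Those with the smallest p over all genes were taken only from called genes in which the genotypes did not overlap. The top and first members of each list, genes the study's text names and the top interaction genes were also named. Not every gene that this rule names is reported here. Genes, lists and tests were chosen with earlier results of these data known. Replicates are separate mice, and the labels give no sorting or preparation batch.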

Additional observations from a re-analysis of the deposited data

Results flagged for a closer look

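Among 4 libraries of a genotype, a library was singled out when its distance to the nearest of the others took up more than the critical share of the whole range (Dixon's test), which chance does in about 1 in 20 groups. Of 304 groups of 4, 23 were singled out. Many of them concern WT replicate 2. It held S100a8 at 4870 CPM (738 to 979 CPM in the other WT libraries), Kif11 at 28 CPM (6.76 to 8.02), Top2a at 290 CPM (78.9 to 108), Smc2 at 113 CPM (39.1 to 51.3) and H2-Aa at 535 CPM (385 to 397), and Rmnd5b at a lower 27.2 CPM (32.9 to 33.8). Its summed level was 12000 CPM for neutrophil markers (2090 to 2630) and 4070 CPM for cell cycle genes (2280 to 2550), and 1150 CPM for red pulp and tissue macrophage markers (1510 to 1540). WT replicate 1 held glycolysis and hypoxia genes at 5230 CPM (4120 to 4190) and patrolling monocyte markers at 4400 CPM (3660 to 3750). WT replicate 3 held Morf4l1 at 248 CPM (285 to 287) and Gpr183 at 41.2 CPM (52 to 53.5), and WT replicate 4 held Mmp9 at 15.2 CPM (2.8 to 4.6) and Smc3 at 266 CPM (222 to 227).

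Among the mutant libraries, Nlrp3-/- replicate 2 stood apart in Rn45s at 131000 CPM (53700 to 56900 in the others), Pycard at 110 CPM (134 to 138), Uqcrq at 236 CPM (311 to 325), the antioxidant list at 9230 CPM (12100 to 12300) and T cell and NK cell markers at 513 CPM (321 to 351). Nlrp3-/- replicate 1 held Ccr2 at 1510 CPM (1030 to 1110) and Gpr183 at 42.5 CPM (20.2 to 22). Nlrp3-/- replicate 3 held erythroid and platelet markers at 225 CPM (56.9 to 62.8).

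The genotype effect differed between M-MDSCs and G-MDSCs by the interaction test in Adgrg5 (3.71 on the log2 scale, M-MDSC minus G-MDSC), Gdpd3 (−1.94) and Pisd-ps1 (−2.09). When 1 mouse was left out at a time, of these 3 only the Gdpd3 difference passed in each of the 8 fits.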

How the results depend on the processing

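The number of genes called, 1060, was 425 with the replicate number as a block, 656 with offsets for GC content and length, 48 with both, and 450 to 1783 when 1 library was left out. DESeq2, edgeR's exact test, DESeq2's size factors, scaling by library size, no filter, a stricter filter and a model of all 16 libraries called 1015 to 1424. Same-numbered samples of the genotypes did not deviate together (correlations −0.484, −0.00553, −0.218 and 0.0253), and 0 samples correlated best with their own number, so the numbers name samples only. The interaction count of 3 was 8 by DESeq2, 5 without a filter and 1 to 4 when 1 mouse was left out. The direction turned in 3 genes that were not called: Ccr2 (log2 fold change 0.031 under the offsets and 0.055 with the block added), S100a8 (0.155 under offsets and block, and −0.821 to 0.565 when 1 library was left out, the highest without WT replicate 2) and Pycard (−0.049 to 0.287 when 1 library was left out, the lowest without WT replicate 2). Of 108 called genes followed under the alternatives, 102 held with library size only, 97 in the model of 16 libraries, 67 with the block, 77 under the offsets, 27 under both and 67 to 107 without 1 library, and none of these turned direction. The cause of these changes was not tested. Depth limits genes near 1 CPM, where a library holds a few counts.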

Other observations

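Of 36 chemokines and chemotactic receptors, 3 rose and 1 fell in Nlrp3-/- M-MDSCs (11.1% called, beside 10.6% of all genes). None was called without WT replicate 2, 5 rose and 4 fell without Nlrp3-/- replicate 1, 4 rose and 1 fell without WT replicate 1, and 1 or 2 rose and none fell without any other library. Besides Ccr3, these were Ccl5, a chemokine of T cells and activated myeloid cells, which read 107, 114, 70.4 and 60.2 CPM in the 4 WT libraries and 123, 275, 134 and 155 CPM in the 4 Nlrp3-/- libraries (log2 fold change 0.96, SE 0.28, adjusted p = 0.0473), and P2ry13, a receptor for ADP, which read 10.4, 11, 9.32 and 18.7 CPM in the 4 WT libraries and 25.2, 17.6, 29 and 26.5 CPM in the 4 Nlrp3-/- libraries (log2 fold change 1.01, SE 0.27, adjusted p = 0.0339). Gpr183, the receptor by which cells follow oxysterols, read 52, 52.6, 41.2 and 53.5 CPM in the 4 WT libraries and 42.5, 22, 21.9 and 20.2 CPM in the 4 Nlrp3-/- libraries (log2 fold change −0.89, SE 0.25, adjusted p = 0.0398). The Ccl5 ranges did not overlap, whereas those of P2ry13 and Gpr183 did. These calls turned on single libraries: that of Ccl5 was lost in every fit that left out 1 library except those without WT replicate 1 or Nlrp3-/- replicate 1, that of P2ry13 was lost in every fit that left out 1 library except those without WT replicate 4 or Nlrp3-/- replicate 1 or 2, and that of Gpr183 was lost in every fit that left out 1 library except that without Nlrp3-/- replicate 1. With offsets for GC content and length the adjusted p was 0.107 for Ccl5, 0.027 for P2ry13 and 0.0528 for Gpr183.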
